A study of Homo sapiens with 25 samples.

Results

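The 10 genes described here encode carriers that move amino acids across the plasma membrane: SLC7A11, SLC7A5, SLC3A2, SLC7A1, SLC7A6, SLC38A1, SLC38A2, SLC1A4, SLC1A5 and SLC43A1. They were taken by symbol from the 31919 genes of the deposited expression table, and all 10 were among the 18799 genes that passed the filter on low values. The study sequenced RNA from DND-41, an established line of human T-cell acute lymphoblastic leukaemia, kept in medium with a graded supply of histidine, an essential amino acid. It gives 25 libraries of total RNA in 9 groups, and the histidine levels are percentages of full medium. On day 6 there were 3 libraries at 100%, 3 at 50%, 2 at 25%, 3 at 12.5% and 3 with no histidine. On day 9 there were 3 at 100%, 2 at 50%, 3 at 25% and 3 at 12.5%. Histidine level and day are the only differences the labels give between groups, and the control of each comparison is 100% medium of the same day unless another is named. Nothing in the labels ties replicates to separate cultures, so the p-values rest on the spread between libraries, and that spread may be technical.

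Amino acid carriers of the SLC families work as exchangers, as sodium-coupled pumps or as facilitated pores, and most accept several amino acids. The light chains SLC7A5, SLC7A6 and SLC7A11 reach the cell surface bound to the heavy chain SLC3A2, whereas SLC7A1, the SLC38 and SLC1 carriers and SLC43A1 need no heavy chain. Histidine enters cells through carriers of large neutral amino acids such as SLC7A5 and through sodium-coupled carriers of the SLC38 family. When an amino acid runs short, uncharged transfer RNA activates the kinase GCN2 (EIF2AK4), and the transcription factor ATF4 that follows is known to induce several of these carriers. T-cell leukaemias are known for strong expression of SLC7A5 and SLC3A2, which NOTCH1 and MYC signalling support.

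Promoter sequences were looked up in RefSeq on GRCh38.p14 from 250 bases before to 50 bases after a gene's start, which gave 16 promoters of 9 of the 10 genes. SLC7A11 had no entry. TGATGNAA, the composite C/EBP-ATF motif known from ATF4 response elements, was searched on both strands and stood in 5 of the 16 promoters (31.2%), against 3.62% of the 35116 promoters of all genes. In the gene lists described below it stood in 14% of 43 promoters of the ATF4 and amino acid response. For other carriers it was 1.92% of 52 promoters, and for regulators 16.7% of 12. The fifth match was in a promoter of SLC1A5 (TGATGCAA at base -97 from the start, chr19:46784765-46785064, minus strand). Shown here are the 4 promoters whose match lies within 50 bases of the start, since they belong to genes that moved in opposite directions without histidine: SLC3A2 and SLC38A1 rose, while SLC7A1 and SLC1A4 fell. Neither fall passed the threshold given below when replicate 1 without histidine was left out. Each promoter is printed 5′ to 3′ on the strand of its gene, and capitals mark the match, which reads as its reverse complement in SLC3A2 and SLC1A4.
SLC3A2 (chr11:62881449-62881748, plus strand): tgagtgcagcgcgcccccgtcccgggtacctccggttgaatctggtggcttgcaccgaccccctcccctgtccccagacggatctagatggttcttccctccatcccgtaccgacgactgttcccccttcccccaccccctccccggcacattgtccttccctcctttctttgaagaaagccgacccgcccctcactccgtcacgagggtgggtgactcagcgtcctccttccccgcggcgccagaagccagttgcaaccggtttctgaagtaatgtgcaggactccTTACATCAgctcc
SLC38A1 (chr12:46266467-46266766, minus strand): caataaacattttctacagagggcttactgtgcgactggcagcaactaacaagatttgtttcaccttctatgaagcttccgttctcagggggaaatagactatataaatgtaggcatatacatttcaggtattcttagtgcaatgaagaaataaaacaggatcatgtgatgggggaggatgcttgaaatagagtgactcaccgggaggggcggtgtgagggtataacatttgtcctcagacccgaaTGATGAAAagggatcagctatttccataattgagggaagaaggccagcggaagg
SLC7A1 (chr13:29595639-29595938, minus strand): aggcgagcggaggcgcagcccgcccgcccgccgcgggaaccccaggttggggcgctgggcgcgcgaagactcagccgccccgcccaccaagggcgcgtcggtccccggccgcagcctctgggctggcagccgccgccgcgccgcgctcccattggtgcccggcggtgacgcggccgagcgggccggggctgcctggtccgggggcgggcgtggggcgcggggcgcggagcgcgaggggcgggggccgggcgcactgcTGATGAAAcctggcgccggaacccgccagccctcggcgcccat
SLC1A4 (chr2:64989149-64989448, plus strand): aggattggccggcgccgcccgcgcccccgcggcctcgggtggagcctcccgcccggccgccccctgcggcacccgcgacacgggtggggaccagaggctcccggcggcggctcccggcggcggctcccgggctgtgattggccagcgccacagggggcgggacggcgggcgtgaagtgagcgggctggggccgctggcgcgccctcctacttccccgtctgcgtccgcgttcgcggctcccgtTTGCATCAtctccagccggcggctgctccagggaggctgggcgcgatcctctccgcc
The match began at base 38 after the start of SLC3A2 and at base 8 after that of SLC7A1, and at base -4 of SLC38A1 and base -7 of SLC1A4. The E-box CACGTG, a site that MYC can bind, stood in 3 of the 16 promoters (18.8%, those of SLC7A5, SLC1A5 and SLC43A1) against 7.26% of all promoters. The core of the antioxidant response element, TGACNNNGC, stood in 5 of 16 (31.2%) against 13.3%. None of these matches overlapped another in the promoters of the 10 genes. The starts of the printed promoters of SLC3A2, SLC38A1 and SLC1A4 lie inside the genes as annotated in GENCODE 29. So does the start of the SLC1A5 promoter with the TGATGNAA match. Which starts DND-41 uses was not analysed here. Promoters of 1 gene can overlap, and a match is a description of letters, not of binding.

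Normalized counts per library added up to between 13.57 M and 16.1 M. Of the markers of T lineage and T-cell leukaemia, CD3E (11530 to 18480 normalized counts) and TLX3 (4478 to 10050) were high in every library. CD5, CD2, PTCRA and TAL1 of the same list did not exceed 154.6, 37.56, 8.144 and 7.272. The myeloid genes CD14, LYZ, CSF1R and MPO did not exceed 17.27. The B-lineage gene CD79A was also high, from 9400 to 22250, with PAX5 at no more than 12.13. The epithelial keratins KRT8, KRT18 and KRT19 summed to over 100 in 6 libraries: 383.2 and 1406 in replicates 1 and 2 of 100% on day 6, 1196 and 119 in replicates 1 and 2 of 50% on day 6, and 788.4 and 1358 in replicates 1 and 3 of 25% on day 9. In the others the sum was between 0 and 60.31. Of the epithelial genes EPCAM and CDH1 were at 0 in 17 libraries each, with highest values of 20.77 and 64.04. Replicate 1 without histidine has a title that places it on day 6 and a time label that places it on day 9, and it was kept on day 6. In bulk RNA, fewer cells of a kind and less RNA per cell cannot be told apart.

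SLC7A11 and SLC3A2 rose against full medium at every level from 25% down on both days, and SLC38A1 and SLC38A2 rose in 4 of these 5 comparisons each. At 25%, SLC1A5 and SLC43A1 rose and SLC7A6 fell on both days. In the absence of histidine SLC7A1, SLC1A4 and SLC43A1 fell. Without histidine 4 of the 10 rose, 3 fell and 3 did not pass the threshold (limma, Benjamini-Hochberg adjusted p under 0.05 over all 18799 genes), where 29.8% of all genes passed, 13.3% higher and 16.5% lower. At 12.5% on day 6, 4 rose and none fell (27% of all genes passed, 11.7% higher and 15.3% lower). At 25% on day 6, 5 rose and 1 fell (13.7%, 6.79% higher and 6.92% lower). On day 9, 3 rose at 12.5% (20.8%, 9.35% higher and 11.5% lower), and 6 rose and 1 fell at 25% (18.2%, 9.4% higher and 8.76% lower). With upper-quartile rescaling and with quantile normalization, 6 rose and 2 fell without histidine, and 6 rose and 0 fell at 25% on day 9. The median log2 change of the 10 genes was 0.27 without histidine, 0.058 at 12.5% and 0.353 at 25% on day 6, beside 0.032, 0.04 and 0.001 over all genes. On day 9 it was 0.15 at 12.5% and 0.4 at 25%, beside 0.025 and 0.003. Groups did not overlap for 8 of the 10 genes without histidine, 6 at 12.5% and 8 at 25% on day 6, which held for 42.7%, 41.6% and 45% of all genes. The same held for 5 at 12.5% and 7 at 25% on day 9, beside 36.7% and 34.8% of all genes.

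Without the 6 libraries high in keratin, 4 of the 10 genes passed without histidine in place of 7 (SLC7A11, SLC3A2, SLC38A1 and, newly, SLC7A6), 4 at 12.5% on day 6 as before, and 3 at 12.5% on day 9 as before. At 25% the numbers fell from 6 to 0 on day 6 and from 7 to 1 (SLC7A11) on day 9, with no change of sign among the genes that had passed. That fit leaves 1 library at 100% on day 6, 1 at 50% on day 6 and 1 at 25% on day 9, each assumed to vary like the other groups. Leaving out replicate 1 without histidine, the library with the conflicting day, gave 5 genes higher and none lower without histidine, since SLC7A5 passed and SLC7A1, SLC1A4 and SLC43A1 no longer did.

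**Figure D1:**
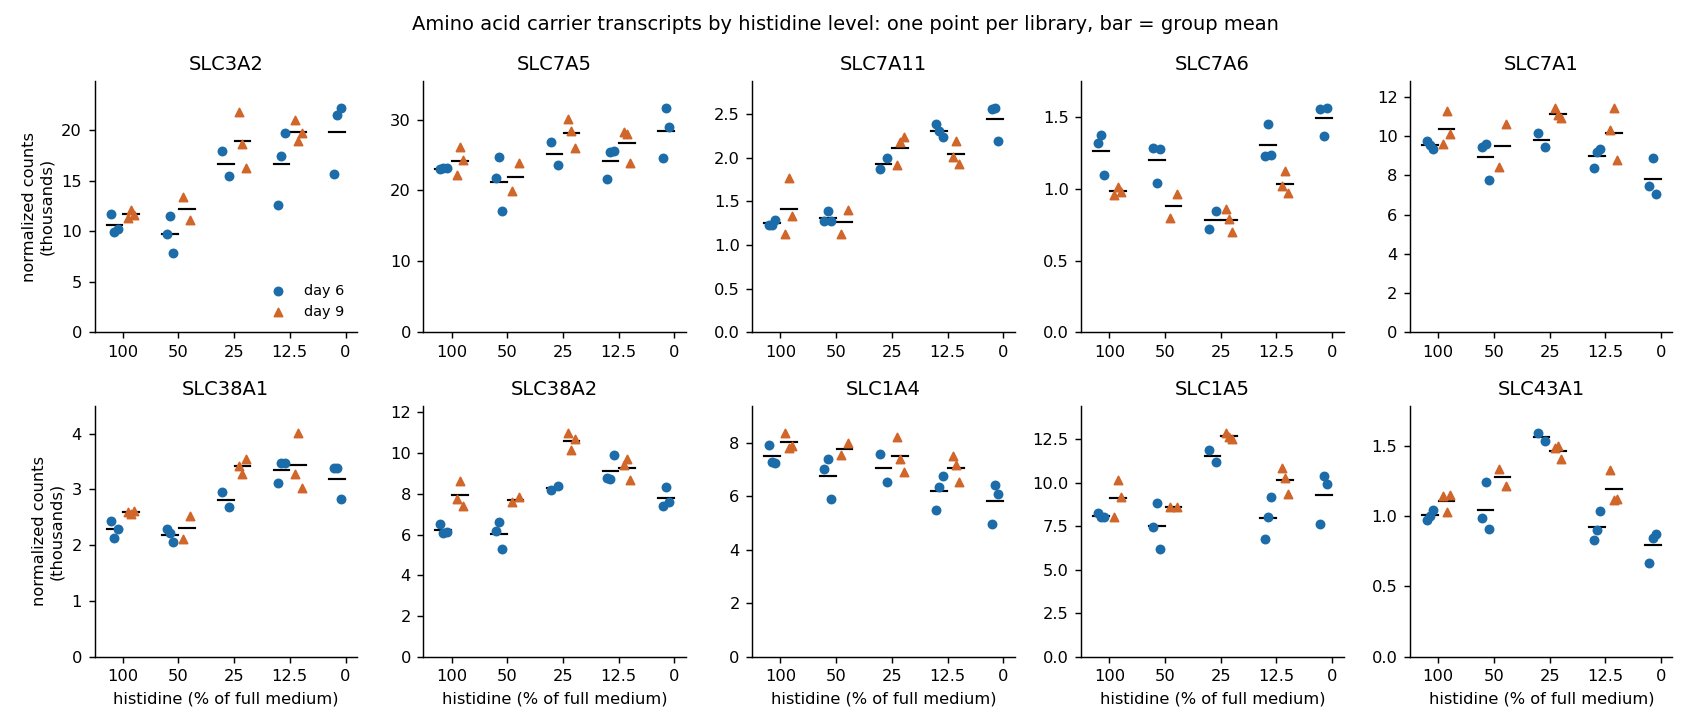
Normalized counts (axis in units of 1000) of each carrier in every library against the histidine level in percent of full medium, with day 6 as blue circles, day 9 as orange triangles and bars at group means. SLC7A11 steps up between 50% and 25% histidine on both days, and SLC7A6 and SLC43A1 have their lowest and highest group at 25%.

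SLC3A2, the heavy chain that carries the SLC7 light chains to the surface, rose at 25% and below on both days. On day 6 it measured 11711, 9980.3 and 10262 normalized counts in full medium and 15699, 21494 and 22234 without histidine. At 12.5% the libraries gave 12656, 17476 and 19766, and at 25% they gave 17949 and 15447. Every library at 25% or below lay above every library in full medium, with mean folds of 1.86, 1.56 and 1.57 at none, 12.5% and 25%. The log2 changes were 0.88 without histidine (SE 0.16, adjusted p = 0.000112), 0.62 (adjusted p = 0.00438) at 12.5% and 0.65 (adjusted p = 0.0138) at 25%. On day 9 it measured 11337, 12141 and 11642 in full medium, 21844, 18696 and 16316 at 25% and 21044, 18925 and 19718 at 12.5%. The changes were 0.69 at 25% (adjusted p = 0.00283) and 0.76 at 12.5% (adjusted p = 0.000984), and the groups again did not overlap. Without replicate 2 at 25% on day 6 the change at 25% was 0.54 (adjusted p = 0.163), no longer past the threshold. Within 12.5%, no histidine and 50% on day 6, the lowest value of SLC3A2 fell in the library with the lowest total of normalized counts (13.57 M, 13.65 M and 14.36 M).

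SLC7A5, the light chain that exchanges large neutral amino acids including histidine, did not pass the threshold at any level. It measured 22984, 23131 and 23121 normalized counts in full medium on day 6 and 24593, 31653 and 28939 without histidine. Every library without histidine was above those in full medium, at a log2 change of 0.29 (95% interval 0.04 to 0.54, adjusted p = 0.0745). At 12.5% on day 6 the libraries gave 21662, 25372 and 25606, on both sides of full medium. On day 9 they gave 22177, 26199 and 24267 in full medium, 30105, 28379 and 26039 at 25% and 28283, 27942 and 23835 at 12.5%, with changes of 0.22 (adjusted p = 0.243), and 0.14 (adjusted p = 0.471). Whether SLC7A5 passed without histidine depended on scaling and on single libraries: it passed with upper-quartile rescaling (0.36, adjusted p = 0.00913), with quantile normalization (0.36, adjusted p = 0.013), with library weights (0.34, adjusted p = 0.0103) and without replicate 1 of that group (0.39, adjusted p = 0.0274) or replicate 3 at 50% on day 6 (0.29, adjusted p = 0.0404). The near-copies SLC7A5P1 and SLC7A5P2 averaged 29.4 and 34.7 in full medium on day 6.

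Relative to SLC7A5, the transcript of the heavy chain stood higher at 25% and below. Per 100 normalized counts of SLC7A5, not scaled by transcript length, SLC3A2 stood at 46.2 ± 4.19 (SD, n = 3) in full medium and 45.6 ± 0.87 (n = 3) at 50% on day 6. It stood at 66.3 ± 0.98 at 25% (n = 2), 68.2 ± 9.41 at 12.5% (n = 3) and 69.5 ± 6.65 without histidine (n = 3). On day 9 the ratio was 48.5 ± 2.43 in full medium (n = 3), 67.0 ± 5.05 at 25% (n = 3) and 75.0 ± 7.51 at 12.5% (n = 3). The libraries of each group at 25% or below lay above all of full medium of the same day. With 3 libraries against 3, the exact two-sided permutation test gave p = 0.1 for no histidine and for 12.5% on day 6 and for both levels on day 9, the smallest it allows. At 50% on day 9 the 2 libraries were far apart, at 46.4 and 67.1.

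**Figure D2:**
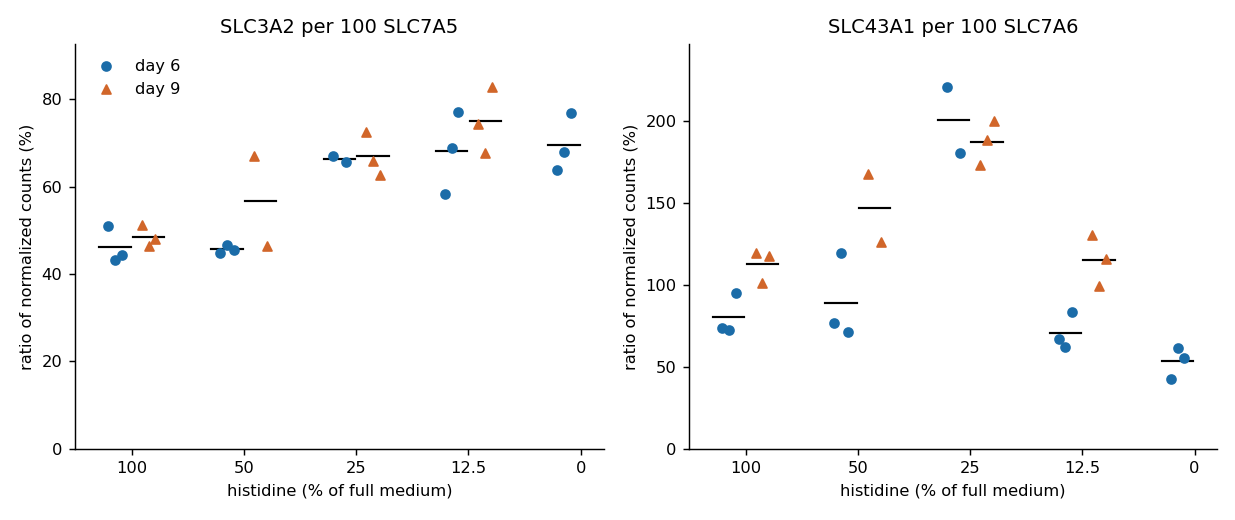
Ratio of normalized counts in every library, in percent, against the histidine level: SLC3A2 per 100 SLC7A5, and SLC43A1 per 100 SLC7A6, with days 6 and 9 marked and bars at group means. The first ratio lies at 46.2 and 48.5 in full medium and at 66.3 to 75.0 from 25% down, and the second is highest at 25% on both days.

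SLC7A11, the light chain that imports cystine in exchange for glutamate, rose without histidine and at 12.5% and 25% on both days. Full medium on day 6 gave 1230.3, 1229 and 1285 normalized counts and 50% gave 1275, 1392 and 1271. The values were 1868 and 1998 at 25%, 2386, 2305 and 2239.5 at 12.5% and 2562, 2572 and 2195 without histidine. So the 25% libraries lay above all of 50% and below all of 12.5%, while 12.5% and no histidine overlapped. The fold over full medium was 1.96 without histidine (log2 change 0.96, SE 0.12, adjusted p = 8.9e-07), 1.85 at 12.5% (0.89, adjusted p = 7.18e-06) and 1.55 at 25% (0.63, adjusted p = 0.00192). The difference between no histidine and 12.5% was 0.077 (95% interval -0.17 to 0.32). On day 9 the values were 1125, 1769.6 and 1337 in full medium, 1913, 2179 and 2239 at 25% and 2013, 2192 and 1929.9 at 12.5%. Replicate 2 of full medium was high on that day but still below every library at 25% and 12.5%. The day 9 changes were 0.60 (adjusted p = 0.000699) at 25%, and 0.56 (adjusted p = 0.00131) at 12.5%. SLC7A11-AS1, on the opposite strand, was at no more than 22.56 normalized counts in any library.

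SLC38A1 and SLC38A2, sodium-coupled importers of glutamine, alanine and other small neutral amino acids, rose at the lower histidine levels. SLC38A1 measured 2428, 2136 and 2299 in full medium on day 6, 2947 and 2678 at 25%, 3111, 3473 and 3479.9 at 12.5% and 3381, 3382 and 2823 without histidine. Its groups at 25% and below lay wholly above full medium, with changes of 0.55 (adjusted p = 0.000204) at 12.5%, and 0.48 (adjusted p = 0.000583) without histidine. At 25% the change of 0.30 did not pass (adjusted p = 0.0771). On day 9 SLC38A1 gave 2603, 2559 and 2609 in full medium, 3423, 3282 and 3550.4 at 25% and 3271, 4019.7 and 3029 at 12.5%. There it rose by 0.40 (adjusted p = 0.00554) at 25%, and by 0.40 (adjusted p = 0.00507) at 12.5%, the latter resting on replicate 2 (without it 0.28, adjusted p = 0.0525).

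SLC38A2 had its highest group mean at 12.5% on day 6 and at 25% on day 9. On day 6 it measured 6540.4, 6079 and 6114 in full medium, 8189 and 8368 at 25%, 8757, 8724 and 9906 at 12.5% and 7428, 8317 and 7619 without histidine. Every library of these 3 levels was above full medium, and every library without histidine was below those at 12.5% (a separation of 29.1% of all genes). The changes were 0.41 (adjusted p = 0.0044) at 25%, 0.55 (adjusted p = 4.16e-05) at 12.5%, and 0.32 (adjusted p = 0.00548) without histidine. The step down from 12.5% to none, -0.23, did not pass (adjusted p = 0.0702, where 15.3% of all genes passed), but passed with quantile normalization or upper-quartile rescaling (-0.26, adjusted p = 0.00417, and -0.24, adjusted p = 0.0159). On day 9 it gave 7731, 8648 and 7425 in full medium, 11010.4, 10142 and 10671 at 25% and 9402, 9724 and 8700.5 at 12.5%. It rose at 25% (0.42, adjusted p = 0.00088), and at 12.5% its libraries lay above full medium with a change of 0.23 (adjusted p = 0.0591), which passed with upper-quartile rescaling (0.28, adjusted p = 0.00477). The call at 25% on day 6 ended without replicate 3 of that group (0.39, adjusted p = 0.0582).

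**Figure D3:**
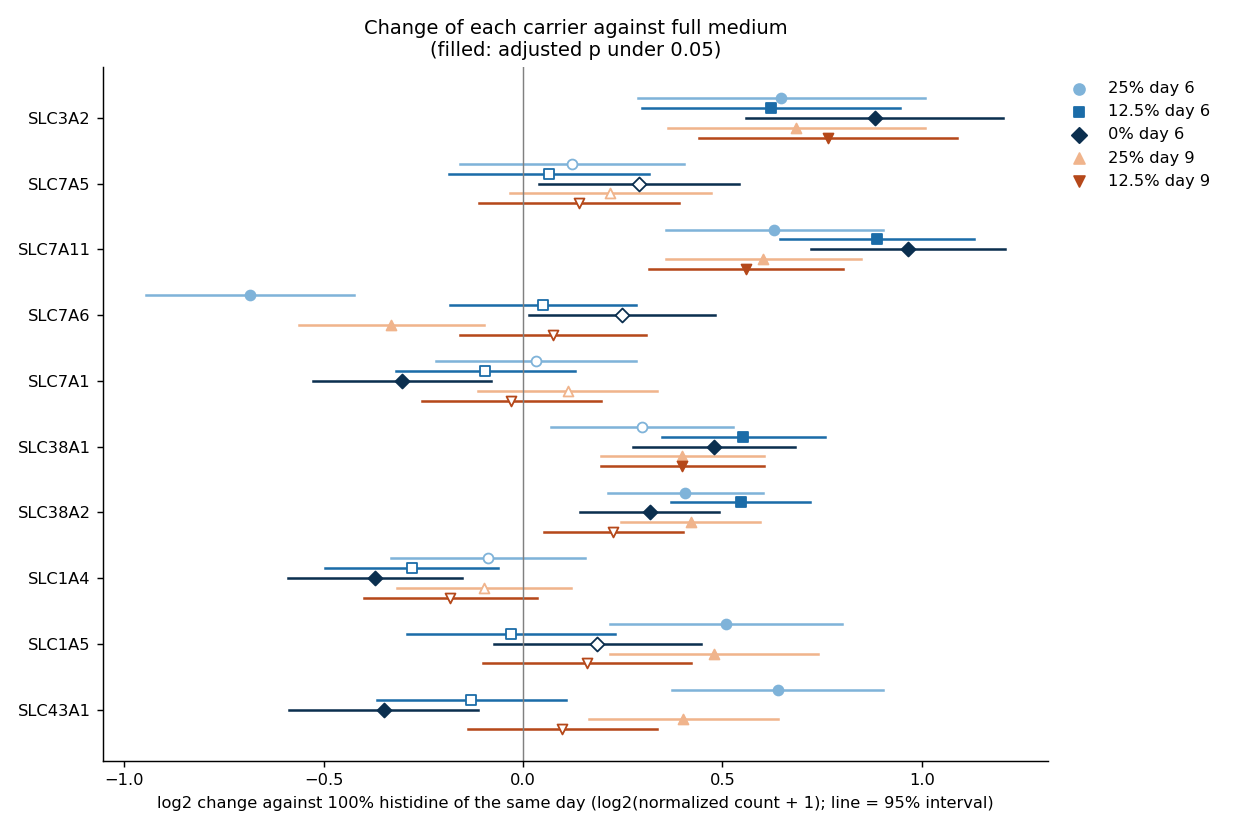
Log2 change of each carrier against full medium of the same day, on the log2(normalized count + 1) scale, with 95% intervals, for no histidine, 12.5% and 25% on day 6 and for 12.5% and 25% on day 9. Filled points passed an adjusted p of 0.05; SLC7A11 and SLC3A2 are filled in all 5 comparisons, and SLC7A6 lies to the left of 0 only at 25%.

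SLC43A1, SLC1A5 and SLC7A6 had their highest (SLC43A1, SLC1A5) or lowest (SLC7A6) group mean at 25% histidine on day 6 and on day 9. SLC43A1, a facilitated carrier of branched-chain and other large neutral amino acids, gave 975, 998 and 1039.6 normalized counts in full medium on day 6 and 986, 1242 and 911 at 50%. It gave 1593 and 1534 at 25%, 828, 902 and 1033 at 12.5% and 663, 847 and 871 without histidine. Both 25% libraries were above all others of that day. The gene rose at 25% (0.64, SE 0.13, adjusted p = 0.00137) and fell without histidine (-0.35, adjusted p = 0.0231). On day 9 it gave 1145, 1028 and 1150.1 in full medium, 1337 and 1215 at 50%, 1486, 1497 and 1404 at 25% and 1325, 1117 and 1124 at 12.5%. The 25% libraries were again above all others, with a change of 0.40 (adjusted p = 0.0157). The fall without histidine did not pass when replicate 1 of that group or replicate 2 or 3 of full medium was left out (adjusted p = 0.168, 0.0513 and 0.0749). Nor did the day 9 rise without replicate 2 of full medium or replicate 1 or 2 at 25% (adjusted p = 0.0759, 0.0505 and 0.0544).

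SLC1A5, a sodium-dependent exchanger of glutamine and other neutral amino acids, measured 8227, 7993 and 8045 in full medium on day 6, 11859 and 11165 at 25%, 6737, 8026 and 9195 at 12.5% and 7592, 10376 and 9889 without histidine. The 2 libraries at 25% were the highest of that day, while those at 12.5% lay on both sides of full medium. On day 9 it measured 8043, 10137 and 9155 in full medium, 12866, 12593 and 12478 at 25% and 10854, 10258 and 9355 at 12.5%. It rose at 25% by 0.51 (adjusted p = 0.0162) on day 6, and by 0.48 (adjusted p = 0.00867) on day 9. Its changes without histidine (0.19, adjusted p = 0.294), at 12.5% on day 6 (-0.03, adjusted p = 0.889) and at 12.5% on day 9 (0.16, adjusted p = 0.413) did not pass. With quantile normalization it passed without histidine (0.37, adjusted p = 0.00172) and at 12.5% on day 9 (0.27, adjusted p = 0.0249). The calls at 25% ended without either 25% library on day 6 (adjusted p = 0.136 and 0.0723) and without replicate 1 of full medium on day 9 (adjusted p = 0.0584).

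SLC7A6, the light chain that exchanges cationic for neutral amino acids, was lowest at 25%. On day 6 it measured 1319.8, 1378 and 1097 in full medium, 1283, 1041 and 1277 at 50%, 722 and 848 at 25%, 1232, 1453 and 1237 at 12.5% and 1556, 1373 and 1566 without histidine. Both 25% libraries were below every other library of that day, and the change was -0.68 (SE 0.13, adjusted p = 0.000593). On day 9 the values were 959, 1014 and 977 in full medium, 798 and 965 at 50%, 857, 793 and 703 at 25% and 1018, 1123 and 971 at 12.5%. The day 9 fall was -0.33 (adjusted p = 0.0437), and did not pass under 12 of 36 other settings, among them leaving out any 1 library of full medium, replicate 2 or 3 at 25%, or replicate 1 at 12.5% (adjusted p from 0.0507 to 0.188). The falls on day 6 and day 9 did not differ past the threshold (adjusted p = 0.896, where 0.00532% of all genes passed). SLC7A6OS, on the opposite strand over 17321 bases of SLC7A6, rose at 25% by 0.34 (adjusted p = 0.0392) on day 6 and by 0.44 (adjusted p = 0.00234) on day 9.

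Comparisons of 25% with 12.5% and of no histidine with 25% were added after these values had been seen. At 25% against 12.5% on day 6, SLC43A1 was 0.77 higher (adjusted p = 0.000274), SLC1A5 0.54 higher (adjusted p = 0.01) and SLC7A6 -0.73 (adjusted p = 0.000359), and the other 7 did not pass, where 17.8% of all genes passed. Those 2 rises and 1 fall became 2 and 2 with upper-quartile rescaling and 2 and 3 with quantile normalization. The call of SLC1A5 ended without replicate 1 at 12.5% or replicate 2 at 25% (adjusted p = 0.0681 and 0.102). On day 9 SLC7A6 differed by -0.40 (adjusted p = 0.0301), where 6.82% of all genes passed, and SLC1A5 and SLC43A1 by 0.32 and 0.30 (adjusted p = 0.137 and 0.12), each with no overlap between the groups (as for 26.6% of all genes). The SLC7A6 call on day 9 ended without replicate 1 or 2 at 12.5% or replicate 2 or 3 at 25% (adjusted p from 0.0648 to 0.153). Without histidine against 25% on day 6, SLC7A6 rose by 0.93 (adjusted p = 4.08e-06), and SLC43A1 differed by -0.99 (adjusted p = 2.33e-06), where 27.2% of all genes passed. In all 1 of the 10 rose and 2 fell there, against 2 and 1 with upper-quartile rescaling and 5 and 1 with quantile normalization. SLC43A1 per 100 normalized counts of SLC7A6, a ratio chosen after its values were seen and not scaled by length, was 80.4 in full medium, 201 at 25%, 70.9 at 12.5% and 53.3 without histidine on day 6, and 113, 187 and 115 at 100%, 25% and 12.5% on day 9. Across the 25 libraries the log2 values of this pair had a Pearson r of -0.909 (Spearman -0.902), and -0.436 once each group's mean was removed, with no test.

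SLC7A1, the uniporter of arginine, lysine and other cationic amino acids, and SLC1A4, an exchanger of alanine, serine and other small neutral amino acids, were lower without histidine. SLC7A1 gave 9773, 9576 and 9367 in full medium on day 6 and 7451, 8906 and 7028 without histidine, a change of -0.30 (adjusted p = 0.0369). Every library without histidine was below full medium, but the call ended when any library of full medium or replicate 1 or 3 without histidine was left out (adjusted p from 0.0641 to 0.167), and with upper-quartile rescaling (-0.23, adjusted p = 0.0708) or quantile normalization (-0.14, adjusted p = 0.284). In the comparison with 25%, SLC7A1 was -0.34 without histidine (adjusted p = 0.0413), and either 25% library or replicate 1 or 3 without histidine ended that call (adjusted p from 0.0895 to 0.239). SLC1A4 gave 7918, 7294 and 7255 in full medium, 5484, 6331 and 6750.3 at 12.5% and 4959, 6432 and 6063 without histidine. It fell without histidine (-0.37, adjusted p = 0.00887), and at 12.5% the change of -0.28 lay at an adjusted p of 0.0517 with no overlap between the groups. The call without histidine ended without replicate 1 of that group (-0.26, adjusted p = 0.0772), the library lowest in SLC1A4 and lowest in total normalized counts of its group. On day 9 SLC1A4 gave 8375, 7793 and 7865 in full medium and 7511, 7175 and 6516 at 12.5% (-0.18, adjusted p = 0.243), and SLC7A1 gave 9625, 11309 and 10109 and 10303, 11434 and 8789, which overlapped.

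At 50% histidine none of the 10 carriers passed the limma threshold on either day, where 0% of all genes passed on day 6 and 0.00532% on day 9. Groups did not overlap for 0 of the 10 on day 6 and 2 on day 9, beside 8.11% and 17.9% of all genes. The changes ran from -0.15 (SLC1A4) to 0.072 (SLC7A11) on day 6 and from -0.17 (SLC38A1) to 0.20 (SLC43A1) on day 9. None had an unadjusted p under 0.05, and the lowest were 0.164 for SLC1A4 on day 6 and 0.125 for SLC43A1 on day 9. For SLC7A11 the 95% intervals at 50% were -0.17 to 0.32 on day 6 and -0.41 to 0.13 on day 9, below its changes at 25% on each day (0.63 and 0.60). From 12.5% to no histidine on day 6 none of the 10 passed, where 15.3% of all genes passed. In full medium SLC38A2 was higher on day 9 than on day 6 (0.34, adjusted p = 0.032), where 2.17% of all genes passed. That call ended without any library of full medium on day 6 or without replicate 1 or 2 on day 9 (adjusted p from 0.0535 to 0.181). The change at 12.5% did not differ between days past the threshold for any of the 10 (0.0638% of all genes passed), with the lowest p at 0.0134 for SLC38A2 (adjusted p = 0.36), and the same held at 25%. The log2 change of SLC7A11 at 12.5% was 0.89 on day 6 and 0.56 on day 9, a difference of -0.33 (95% interval -0.67 to 0.016).

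Other carriers were read from a list of 47 genes of the plasma membrane and lysosome, of which 37 are in the table and 23 passed the filter on low values. Without histidine 6 of these 23 rose and 3 fell (13.3% and 16.5% of all genes), with a median log2 change of -0.068 beside 0.032 over all genes. The rises were led by SLC6A20, a proline carrier (1.21, from 221 to 519 normalized counts), and MFSD12, a lysosomal cysteine importer (0.75, from 688 to 1174 normalized counts). SLC43A2, the closest relative of SLC43A1, went from 632 to 978 (0.63, adjusted p = 9.91e-05), opposite to SLC43A1. The lysosomal carriers SLC38A7 for glutamine and SLC15A4 for histidine and peptides rose by 0.60 and 0.48 (adjusted p = 0.000686 and 0.00566). Lower were SLC38A5, a glutamine and histidine carrier of the SLC38 family (-0.76, adjusted p = 0.000763), SLC16A10, a carrier of aromatic amino acids (-0.74, adjusted p = 0.000662), and SLC36A1, a lysosomal proton-coupled exporter (-0.65, adjusted p = 0.0219). SLC38A5 moved opposite to SLC38A1 and SLC38A2.

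At 12.5% on day 6, 1 of the 23 rose, SLC6A20 (1.62, adjusted p = 1.23e-07), and 4 fell: SLC16A10 (-0.60), SLC38A9 (-0.55), a lysosomal arginine sensor, SLC6A9 (-0.51), a glycine carrier, and SLC38A10 (-0.38). That count of rises went to 5 with upper-quartile rescaling, which moved the median of all genes from 0.04 to 0.121, and to 4 with quantile normalization, which moved it to 0.02. At 12.5% on day 9 none rose and 4 fell: SLC38A5 (-0.72), SLC16A10 (-0.68), SLC38A9 (-0.60) and SLC38A10 (-0.45). SLC36A4, an amino acid carrier of the SLC36 family, was the 1 gene of the 23 that rose at 25%, on day 6 (0.57, adjusted p = 0.0174) and on day 9 (0.42, adjusted p = 0.0426), a result named after its values were seen, while 2 of the 23 fell at 25% on day 6 (SLC6A9 and SLC38A10) and 1 on day 9 (SLC38A10). At 50% none passed on either day.

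**Figure D4:**
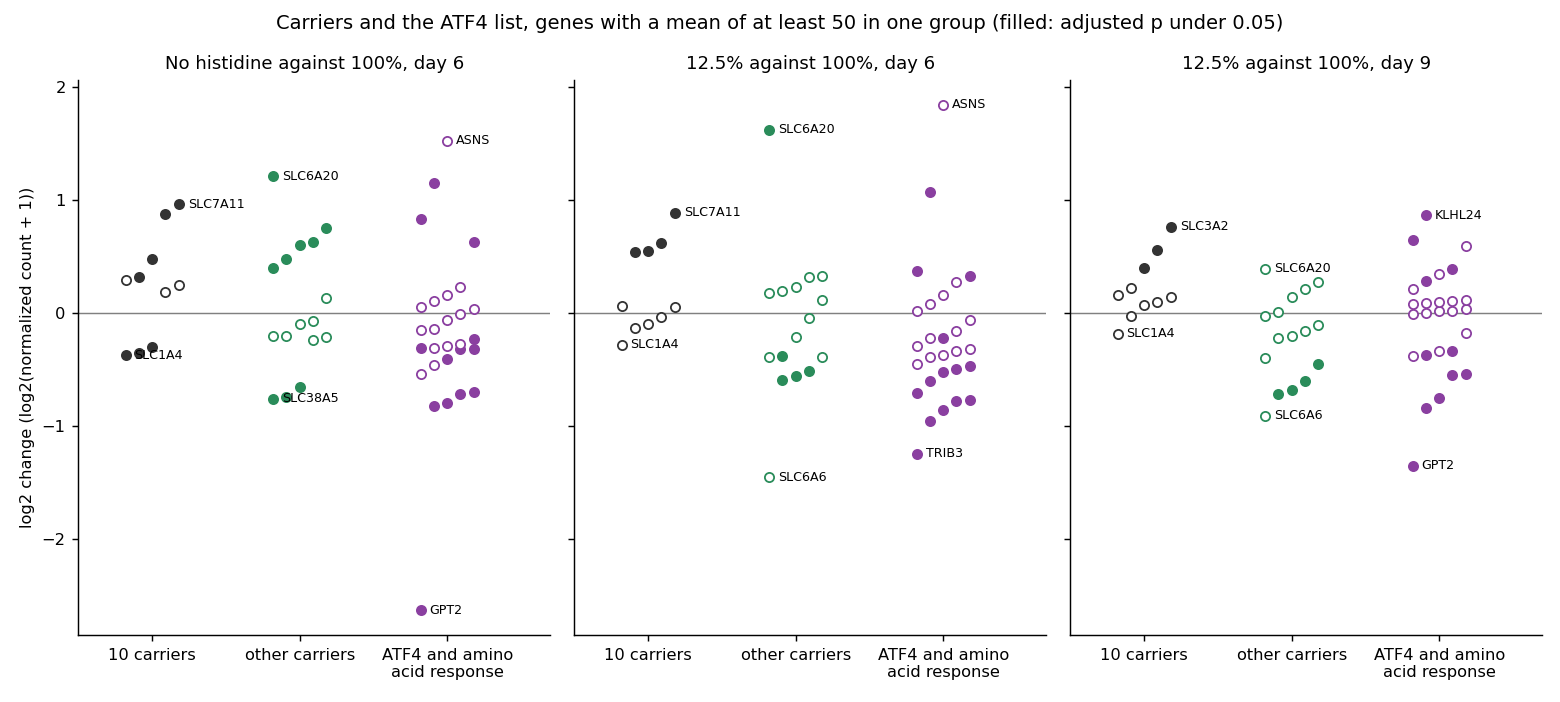
Log2 change against full medium of the same day of the 10 carriers, of other carriers and of the ATF4 and amino acid response list, for no histidine and 12.5% on day 6 and 12.5% on day 9, with genes averaging at least 50 normalized counts in 1 of the groups. Filled points passed an adjusted p of 0.05; in each panel the ATF4 list holds filled points on both sides of 0, and GPT2 lies lowest without histidine, at -2.63.

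Genes of the ATF4 and amino acid response were read from a list of 35, of which 32 passed the filter, since ATF4 is known to induce SLC7A11, SLC3A2, SLC7A5, SLC38A2 and SLC1A4. Without histidine 4 of the 32 rose and 10 fell (median log2 change -0.249), beside 13.3% and 16.5% of all genes. At 12.5% on day 6, 4 rose and 11 fell (-0.304), beside 11.7% and 15.3% of all genes, and at 12.5% on day 9, 5 rose and 7 fell (0.058), beside 9.35% and 11.5%. At 25%, 5 rose and 7 fell on day 6, beside 6.79% and 6.92% of all genes, and 5 rose and 8 fell on day 9, beside 9.4% and 8.76%. Rises without histidine included KLHL24 (1.15), the eIF2α phosphatase subunit PPP1R15A (0.84) and the serine-synthesis enzyme PSPH (0.63). Falls included the alanine transaminase GPT2 (-2.63, from 83.3 to 12.6), PSAT1, another enzyme of serine synthesis (-0.83), the transcription factor ATF5 (-0.79), CLGN (-0.72) and TRIB3, an inhibitor of ATF4 signalling (-0.70). At 12.5% on day 6, the 4 rises included KLHL24 (1.07). The 11 falls there included TRIB3 (-1.25), ATF5 (-0.95), EIF4EBP1 (-0.86), GPT2 (-0.78) and DDIT3 (-0.77). On day 9 the 5 rises at 12.5% included KLHL24 (0.87) and PPP1R15A (0.65). The 7 falls included GPT2 (-1.35), ATF5 (-0.84), CTH (-0.75), ALDH18A1 (-0.54) and DDIT3 (-0.54). The ATF4 transcript itself stood at 0.033 (adjusted p = 0.825) without histidine. At 12.5% on day 6 it measured 14936 to 17300 normalized counts, below every library of full medium (18313 to 18455). Groups were apart there, in either direction, for 41.6% of all genes. On day 9 ATF4 at 12.5% (18156 to 19926) overlapped full medium (18786 to 19291). DDIT3 averaged 636 in full medium on day 6 and 660 without histidine. ASNS, the asparagine synthetase gene, was low, at 23.2 ± 19.2 (SD, n = 3) in full medium and 64.1 ± 35.5 (n = 3) without histidine (1.53, adjusted p = 0.102). At 12.5% on day 6 ASNS measured 51.8 to 86.8, above every library of full medium (8.92 to 45.0), a separation of 41.6% of all genes. On day 9 ASNS averaged 39.5 at 12.5% and 35.6 in full medium. CHAC1, which degrades glutathione, passed at 25% (0.66, adjusted p = 0.0222 on day 6, and 0.59, adjusted p = 0.0171 on day 9) and measured 0.23 (adjusted p = 0.347) without histidine.

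Among regulators of carriers and nutrient uptake, MYC stood at -0.022 (adjusted p = 0.871) without histidine, fell at 12.5% (-0.24, adjusted p = 0.0272) and at 25% (-0.53, adjusted p = 0.000201) on day 6, and on day 9 did not pass at 12.5% (0.12, adjusted p = 0.301) or at 25% (-0.16, adjusted p = 0.184). The arrestins ARRDC3 and TXNIP, which restrain receptors and glucose uptake, rose without histidine, ARRDC3 from 332 to 3846 normalized counts (3.53, adjusted p = 2.24e-15) and TXNIP by 1.24 (adjusted p = 1.13e-08). At 12.5% they rose by 2.02 and 1.19 on day 6 and by 1.72 and 1.80 on day 9. NFE2L2, the transcription factor that acts on antioxidant response elements, rose by 0.36 (adjusted p = 0.00314) without histidine, and EIF2AK4, the kinase GCN2, by 0.39 (adjusted p = 0.00876). The ubiquitin ligase gene NEDD4L fell there (-1.56, adjusted p = 0.00027). NFE2L2, EIF2AK4 and NEDD4L did not pass at 12.5% on day 6. Of the list of 6 regulators, 4 rose and 1 fell without histidine (13.3% and 16.5% of all genes). At 12.5% on day 6, 2 rose and 1 fell (11.7% and 15.3% of all genes). At 12.5% on day 9, 3 rose and 0 fell (9.35% and 11.5% of all genes). The values of NFE2L2, EIF2AK4 and NEDD4L at 12.5% on day 9 are not reported here.

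Genes whose log2 values over the 25 libraries followed each carrier most closely were sought among 10752 genes with a symbol and a mean of at least 50, as a description with no test, since the libraries share their histidine groups and their scaling. SLC3A2 was closest to LRRC61 (r = 0.967) and UFC1 (r = 0.962), SLC43A1 to CFAP20 (r = 0.955) and SLC38A2 to EIF1AD and DDX6 (r = 0.942 each). Among the 3 genes closest to SLC1A5 was PSMB1 (r = 0.944), among those of SLC38A1 was PROSER1 (r = 0.936), and among those of SLC7A1 was NAA50 (r = 0.888). SLC7A6 was closest to BAHCC1 (r = 0.935), SLC7A11 to NDST3 and KDM5A (r = 0.918 each), SLC1A4 to TRIM28 (r = 0.915) and SLC7A5 to CCDC97 (r = 0.869). Within the 10 carriers the highest values were 0.868 for SLC7A11 with SLC38A1, 0.839 for SLC38A1 with SLC38A2, 0.815 for SLC3A2 with SLC38A1 and 0.808 for SLC3A2 with SLC7A5. With each group's mean removed, these were 0.349, 0.463, 0.036 and 0.702.

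In GENCODE 29 on GRCh38, which may differ from the annotation the authors used, the genes lie as follows. The plus strand holds SLC3A2 at chr11:62856102-62888875, SLC7A6 at chr16:68264516-68301823 and SLC1A4 at chr2:64988477-65023865. The minus strand holds SLC7A11 at chr4:138164097-138242349, SLC7A5 at chr16:87830023-87869488, SLC7A1 at chr13:29509410-29595688, SLC38A1 at chr12:46183063-46270017, SLC38A2 at chr12:46358189-46372867, SLC1A5 at chr19:46774883-46788594 and SLC43A1 at chr11:57484534-57515786.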

How the data were processed

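Strand-specific libraries of total RNA from DND-41 cells were sequenced, per the labels' protocols. The authors deposited 1 table whose signal is a normalized count per gene and library. The submitters' processing notes name kallisto 0.50.1, DESeq2 1.44.0 and FastQC 0.11.9 and the build GRCh38. No source used here gives the annotation release or the strand setting of the counting. All 25 columns matched a library by label, with 0 left unused. A search for the value of 1 read in each library placed only 37.8% to 76.2% of values under 20 within 0.05 of a whole multiple. Whole reads were therefore not recovered, no count test was run, and only totals of normalized counts stand for depth. Differences in RNA content per cell are lost in such scaling.

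The 18799 genes reaching 10 normalized counts in 2 or more libraries entered a limma fit (version 3.58.1, R 4.3.3) of log2(value + 1) with trended variance, 9 group means and 16 residual degrees of freedom. Tests were two-sided, adjusted by Benjamini-Hochberg within each comparison, and called under 0.05. The log2 scale with its pseudocount of 1 understates the change of low genes. Folds are ratios of group means, and ± marks the SD. Figures came from matplotlib 3.10.9 in Python 3.11.15. The code was first tested on simulated data.

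The 10 genes and the lists were chosen with earlier results of these data known. Genes named from the 2 main lists are up to 5 in each direction among those past the threshold in no histidine and 12.5% against 100%, where the higher group averaged 50 or more, plus ATF4, ASNS, DDIT3, TRIB3, CHAC1, MYC, ARRDC3 and TXNIP in any case. NFE2L2, EIF2AK4 and NEDD4L belong to a list of 6 regulators, and were named after their values were seen. The 3 comparisons of 25% with 12.5% or with none were added after values were seen. Other settings were pseudocounts of 0.5 and 8, no filter or one of 50, 2 other scalings, a fit with no trend, library weights, a replicate block, the compared groups alone, and the omission of each library or of all 6 high in keratin. Groups follow the titles. Days are those of the samples, which differ from the days in the series text. For each carrier the 3 closest genes by Pearson r were sought, and some of them are not reported here.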

Additional observations from a re-analysis of the deposited data

Results flagged for a closer look

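SLC7A11 at 50% histidine stood 0.07 above full medium on day 6 on the log2 scale and -0.14 from it on day 9, with every library at 50% above the mean of full medium on day 6 and below it on day 9. The libraries of the 2 levels overlapped on both days. On day 6 they ran from 1271 to 1392 at 50% and from 1229 to 1285 in full medium. On day 9 they ran from 1129 to 1397 (2 libraries) and from 1125 to 1770. Neither change passed the limma threshold, and the difference between the days was not tested.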

How the results depend on the processing

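Of the 35 calls for single carriers none changed direction under any of the 36 other settings. SLC7A11, SLC3A2 and SLC38A1 without histidine, the 4 calls at 12.5% on day 6, and SLC7A11 and SLC3A2 at 12.5% on day 9 passed under all 36. So did SLC7A11 at 25% on day 9, and SLC7A6 and SLC43A1 on day 6 at 25% against 12.5% and without histidine against 25%. Below are the counts that moved by over 1.5 times and some of the signs that turned. The causes were not tested. Without the libraries high in keratin, which leaves fewer samples, 4 carriers passed without histidine (7 in the main fit), 0 at 25% on day 6 (6), 1 at 25% on day 9 (7), 0 between days in full medium (1) and 0 at 25% against 12.5% on day 9 (1). Over all genes the same fit gave 3239 in place of 5611 without histidine, 2464 in place of 5072 at 12.5% and 914 in place of 2577 at 25% on day 6, 1216 in place of 3415 at 25% on day 9, 21 in place of 408 between days and 248 in place of 1282 at 25% against 12.5% on day 9. With quantile normalization 5 carriers passed at 12.5% on day 9 (3), 1 without histidine against 12.5% (0), 5 at 25% against 12.5% on day 6 (3) and 6 without histidine against 25% (3). Upper-quartile rescaling gave 1 without histidine against 12.5%, and smaller moves elsewhere: 8 without histidine (7), 4 at 12.5% on day 9 (3), 6 at 25% on day 9 (7) and 4 at 25% against 12.5% on day 6 (3). Other settings also moved counts by less, among them a filter of 50 in 2 libraries, which gave 5 at 12.5% on day 6 (4), 4 at 12.5% on day 9 (3) and 4 without histidine against 25% (3). Library weights gave 1 without histidine against 12.5% (0), 2 between days (1) and 3 at 25% against 12.5% on day 9 (1). Weights also gave 292 genes in place of 0 at 50% on day 6, 4967 in place of 2869 without histidine against 12.5%, 1069 in place of 408 between days, and 5475 in place of 3348 and 1935 in place of 1282 at 25% against 12.5% on days 6 and 9. The count between days was 0 with no filter and with no mean trend. At 25% against 12.5% on day 9 it was 0 with no mean trend and 2 in a fit on the compared groups only, which gave 1612 genes without histidine against 12.5%.

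Signs turned only for changes that did not pass. SLC7A1 at 12.5% on day 6 was 0.083 with quantile normalization, and on day 9 it was 0.02 with upper-quartile rescaling, 0.091 with quantile normalization and 0.01 with library weights. SLC1A5 at 12.5% on day 6 was 0.054 with upper-quartile rescaling and 0.14 with quantile normalization, and SLC7A11 at 50% on day 6 was -0.016 without the keratin libraries. That last value sets 1 library against 1. Leaving out 1 library gave ranges of -0.049 to 0.116 for SLC7A6 and -0.137 to 0.087 for SLC1A5 at 12.5% on day 6, of -0.019 to 0.086 for SLC7A1 and -0.195 to 0.021 for SLC1A4 at 25% on day 6, of -0.118 to 0.072 for SLC7A1 at 12.5% on day 9 and of -0.295 to 0.034 for SLC7A11 at 50% on day 9. Leaving out 1 library, the count of carriers ran from 5 to 8 without histidine, 4 to 7 at 25% on day 6, 2 to 4 at 12.5% on day 9, 5 to 7 at 25% on day 9, and 0 to 1 without histidine against 12.5%, between days and at 25% against 12.5% on day 9. Over all genes it left 1398 at 25% on day 6 without replicate 2 and 1261 without replicate 3.

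Same-numbered libraries of 2 groups showed no common deviation, with correlations of -0.128 to 0.082 (92 pairs). Whether the numbers mark shared cultures is not given by the labels, and low correlations cannot decide it. With a replicate block 8 carriers passed without histidine, SLC7A5 being added (0.29, adjusted p = 0.0439 in limma), SLC7A6 no longer passed at 25% on day 9, and SLC7A11 passed without histidine against 25%. Depth in reads is unknown.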
